A study of Mus musculus with 556 samples.

Results

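Imprinted genes are expressed from only 1 parental copy, and the choice is carried by DNA methylation that egg and sperm lay down at control regions and that escapes the wave of demethylation after fertilization. The 10 loci described here are H19, Meg3, Kcnq1ot1, Peg3, Snrpn, Igf2r, Gnas, Grb10, Mest and Peg10, chosen as well-known imprinted genes with such a mark. At H19 and Meg3 the paternal copy carries the methylation, and at the other 8 loci the maternal copy does. The question was how often these loci touch the nuclear lamina, the protein mesh that lines the inner nuclear membrane, in paternal and maternal pronuclei and across early development. Each gene was placed, by its RefSeq midpoint on GRCm38 (mm10), in 1 of 24639 autosomal bins of 100 kb, of which 24022 held values. All 10 member bins held values, and with 5 bins on each side their windows covered 106 different bins.

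Lamina contact was read by single-cell DamID. Dam, a bacterial enzyme that methylates adenine in the sequence GATC, is fused to lamin B1, so that DNA close to the lamina is marked and sequenced, while Dam alone marks open chromatin throughout the nucleus. The deposited value, OE, is the ratio of observed to expected reads of a bin in 1 cell. An OE of 1 is the genome-wide expectation, and a cell is called in contact here when OE is at least 1. Chromatin at the lamina is as a rule poor in genes and transcription, and the maternal and paternal genomes of the zygote stay apart in pronuclei until the first mitosis.

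The table held 512 single cells or pronuclei, of which 498 fell into 23 groups, 19 with Dam-lamin B1 (360 cells) and 4 with Dam (138 cells). The labels of the other 14 cells contradicted each other, and these cells were not used. The pronuclei were 15 paternal and 10 maternal without Kdm5b, 6 paternal and 13 maternal with mutant Kdm5b, and 19 paternal and 19 maternal with wild-type Kdm5b. Kdm5b is a histone demethylase that erases a methyl mark of active promoters, and the labels do not say what the mutation changes. Kdm5b mRNA was injected at 2 µg/µl, 18 h after hCG. Further Dam-lamin B1 groups were whole zygotes with aphidicolin, which blocks DNA replication (n = 9), or with DMSO (n = 11). Others were zygotes with wild-type (n = 12) or mutant Kdm4d (n = 10), another histone demethylase, and oocytes labelled 20 ng (n = 17) or 50 ng (n = 23). They enter the depth and the empty bins over all cells, the likeness between genes and the flagged results. Every embryo group received mRNA of an auxin-degron Dam fusion with TIR1, the auxin receptor, and membrane-EGFP. Auxin, which degrades the fusion, was withdrawn for 6 to 8 h, from 21 h after hCG in zygotes, 42 h in 2-cell and 66 h in 8-cell embryos. The Dam-lamin B1 mRNA was at 5 ng/µl in oocytes, zygotes and Kdm5b pronuclei, 10 ng/µl at the 2-cell stage and 20 ng/µl at the 8-cell stage, and Dam mRNA at 20 ng/µl in oocytes and zygotes and 40 ng/µl in 2-cell and 8-cell embryos. For pronuclei without Kdm5b, and for zygotes with aphidicolin, DMSO or Kdm4d, the labels give no mRNA concentration. The oocytes labelled 20 ng or 50 ng are not among those at 5 ng/µl. Pronuclei were pulled apart by hand at stage PN5 in cytochalasin B, and their parent was judged by size and by position relative to the polar body.

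Oocytes and isolated pronuclei carry the strain label C57BL/6, although the protocol names F1 (CBAxC57BL/6J) females, crossed with F1 males for non-hybrid embryos. Whole zygotes, 2-cell and 8-cell embryos came from C57BL/6 females and CAST/EiJ males, and the ES cells, a line of 129/Sv and CAST/EiJ parents, are a culture rather than an embryo. Since no label ties a sample to a mother, a litter or a day, p-values measure the spread between single pronuclei or zygotes, part of which may be technical. The OE values of whole cells join both alleles, so a parental difference can be seen only in the isolated pronuclei.

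The contact values rest on few counts. The depth recovered from the values was 23564 to 1091127 counts per cell with a median of 71773, taken as the lowest depth that makes the values whole multiples of 1 count. The member bins were empty in 13.5% (Grb10) to 35.5% (Mest) of all cells. Paternal pronuclei were the deeper ones: the median depth was 104971 counts in paternal and 74913 in maternal pronuclei with wild-type Kdm5b, 103862 in paternal and 52543 in maternal pronuclei with the mutant, and 144985 in paternal and 83407 in maternal pronuclei without Kdm5b. The median share of empty bins was 6.63% in paternal and 25.5% in maternal pronuclei with wild-type Kdm5b, 9.86% and 38.6% with the mutant, and 9.20% and 24.1% without Kdm5b, again paternal before maternal. The part of depth and of empty bins in the parental differences was not tested, but the values after thinning every cell to 23564 counts, and after setting the mean log2 value of all cells equal, are given beside the called differences with wild-type Kdm5b.

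The promoters show how unlike these loci are at the base level, but they do not stand for the methylated control regions, which could not be printed. The windows printed are the 250 bases before a transcription start in RefSeq (GRCm38.p6), on the gene's strand, with CG in capitals, the dinucleotide that carries DNA methylation, and GATC in capitals, the site that Dam marks. Shown is 1 window for each of 5 members that carry a result below or are rich in CpG, and other windows of this kind are left out. Gnas has 4 windows with 14 to 29 CpG, Meg3 has windows with 10 and 0, and Grb10 has a second one with 8. The table has no entry for H19 and Peg10.
Igf2r chr17:12769707-12769956 (minus strand): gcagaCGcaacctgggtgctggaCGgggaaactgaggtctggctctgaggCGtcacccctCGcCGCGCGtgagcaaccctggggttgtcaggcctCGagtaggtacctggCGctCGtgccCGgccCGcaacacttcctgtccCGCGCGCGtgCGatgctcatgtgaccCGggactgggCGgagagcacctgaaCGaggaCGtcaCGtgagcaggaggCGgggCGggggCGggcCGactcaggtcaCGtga
Mest chr6:30737800-30738049 (plus strand): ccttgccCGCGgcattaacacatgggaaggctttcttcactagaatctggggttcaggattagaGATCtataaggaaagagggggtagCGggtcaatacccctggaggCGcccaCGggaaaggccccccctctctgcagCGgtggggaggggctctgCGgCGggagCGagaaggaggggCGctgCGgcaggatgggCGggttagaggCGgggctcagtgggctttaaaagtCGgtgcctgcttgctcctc
Grb10 chr11:12037421-12037670 (minus strand): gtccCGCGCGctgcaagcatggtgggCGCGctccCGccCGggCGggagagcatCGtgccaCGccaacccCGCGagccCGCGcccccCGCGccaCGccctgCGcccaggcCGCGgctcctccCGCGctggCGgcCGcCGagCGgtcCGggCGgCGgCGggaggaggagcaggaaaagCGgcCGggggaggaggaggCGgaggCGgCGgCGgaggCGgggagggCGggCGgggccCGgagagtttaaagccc
Kcnq1ot1 chr7:143296548-143296797 (minus strand): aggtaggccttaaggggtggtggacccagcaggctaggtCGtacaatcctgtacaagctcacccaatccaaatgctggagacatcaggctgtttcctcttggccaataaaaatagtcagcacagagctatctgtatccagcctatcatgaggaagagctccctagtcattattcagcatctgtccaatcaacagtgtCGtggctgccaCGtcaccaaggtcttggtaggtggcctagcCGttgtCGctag
Snrpn chr7:60005200-60005449 (minus strand): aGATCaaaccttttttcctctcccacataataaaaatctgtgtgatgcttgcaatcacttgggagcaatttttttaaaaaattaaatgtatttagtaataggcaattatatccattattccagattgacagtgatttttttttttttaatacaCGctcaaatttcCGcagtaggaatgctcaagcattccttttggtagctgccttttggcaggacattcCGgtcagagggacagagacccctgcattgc
The Grb10 window holds 40 CpG, more than 98.7% of the 32851 promoter windows of the table, and the Igf2r window holds 27, more than 91.4% of them. The Mest window holds 14 CpG. The Kcnq1ot1 window holds 5 and the Snrpn window 3, against a median of 6 over all windows. GATC occurs in the Mest and Snrpn windows and in 5 of the 18 windows of the 8 members with an entry, and in 41.9% of all windows. A window without GATC is read through the GATC sites elsewhere in its 100 kb bin, so the values below speak of the bin and not of the promoter. The Grb10 and Snrpn windows printed here lie outside the member bins of these genes. Those bins are chr11:11900001-12000000 for Grb10 and chr7:60200001-60300000 for Snrpn, so their values do not cover the printed windows.

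The loci lie in different chromatin of the later embryo. In the deposited lists of lamina-associated domains (LADs) of the blastocyst's inner cell mass and trophectoderm, the bins of Snrpn, Gnas and Grb10 touch a domain in both lists, those of Kcnq1ot1 and Peg3 in the inner cell mass list only, and those of H19, Meg3, Igf2r, Mest and Peg10 in neither. Of the 106 window bins, 40.6% had no cover at all in either list, against 32% of all bins. Another 32.1% were covered by at least 50% in both, against 50.3% of all bins. The H19 and Kcnq1ot1 windows, which lie in the same imprinted cluster of chromosome 7, share bins, so their window values are not independent.

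With wild-type Kdm5b, several imprinted loci had a higher Dam-lamin B1 OE in the paternal than in the maternal pronucleus. No pronuclei with Dam alone were among the groups. The part of chromatin open to the enzyme in the parental differences was therefore not tested. H19, Peg10 and Igf2r were higher in paternal pronuclei at their own bin, and the windows of 11 bins around Kcnq1ot1, Gnas, Peg10, H19 and Mest were higher as well. No member was called lower in paternal pronuclei at this scaling. The comparison used limma on log2(OE + 0.25) over all bins with a mean OE of at least 0.1, with Benjamini-Hochberg adjustment and a threshold of 0.05, and 3 of 10 member bins were called higher where 15.6% of all bins were called, 14.4% higher and 1.21% lower. Among windows 5 of 10 were called higher where 34.7% of all windows were called, 28.5% higher and 6.18% lower. Among the bins in neither LAD list, 19.1% of bins and 43.1% of windows were called higher. The median difference was 0.69 over the 10 member bins against 0.26 over all bins, and 0.36 over the member windows against 0.15 over all windows. Over the bins in neither LAD list it was 0.40, and over the windows centred on them 0.28. Over the 40 other imprinted genes described below it was 0.31 for bins and 0.32 for windows.

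H19 makes an untranslated RNA from the maternal copy and shares enhancers with the growth factor gene Igf2 (gene 14955, chr7:142575530-142578146, inside the bin chr7:142500001-142600000). In paternal pronuclei with wild-type Kdm5b, its OE ran between 0.469 and 3.17 with a median of 1.56, and in maternal ones between 0 and 3.20 with a median of 0.279. All 19 paternal values lay above the maternal median, although 1 maternal pronucleus topped them all and the groups overlap. The counts behind them were a median of 7 (3 to 15) in paternal and 1 (0 to 7) in maternal pronuclei. No paternal bin was empty and 8 of the 19 maternal ones were. Contact was seen in 78.9% of paternal and 15.8% of maternal pronuclei (exact 95% intervals 54.4 to 93.9% and 3.38 to 39.6%, which cover counting error over pronuclei only). The log2 difference was 1.62 ± 0.33 (SE, 95% interval 0.97 to 2.28, limma, Benjamini-Hochberg adjusted p = 0.000195), and it was called under all 9 alternatives, with 1.84 after thinning (adjusted p = 0.00812) and 1.33 with equal cell means (adjusted p = 0.00483).

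Peg10 is a gene taken from a retrotransposon that is expressed from the paternal copy and needed in the placenta (gene 170676, chr6:4747306-4760517, inside the bin chr6:4700001-4800000). Its OE in paternal wild-type Kdm5b pronuclei ran between 0.295 and 3.21 with a median of 0.943, and in maternal ones between 0 and 2.25 with a median of 0.157. Again no paternal bin was empty, while 9 of the 19 maternal ones were, and the groups overlap. The log2 difference was 1.33 ± 0.34 (SE, 95% interval 0.67 to 2.00, limma, Benjamini-Hochberg adjusted p = 0.00282), called under all 9 alternatives, with an adjusted p of 0.0377 after thinning and 0.0333 with equal cell means.

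Igf2r encodes the receptor that takes the growth factor IGF2 out of circulation and is expressed from the maternal copy (gene 16004, chr17:12682406-12769706, inside the bin chr17:12700001-12800000). Its OE was 0 to 2.60 with a median of 1.59 in paternal and 0 to 1.22 with a median of 0.693 in maternal wild-type Kdm5b pronuclei, and 16 of the 19 paternal values lay above the maternal median. The log2 difference was 1.06 ± 0.33 (SE, 95% interval 0.41 to 1.71, limma, Benjamini-Hochberg adjusted p = 0.0167). It was called under 5 of 9 alternatives and missed the threshold after thinning (0.95, adjusted p = 0.224), with equal cell means (0.77, adjusted p = 0.115), after scaling to the median bin (0.89, adjusted p = 0.101) and without the wild-type pronuclei numbered 14 to 19 (0.75, adjusted p = 0.286), an alternative chosen after seeing the data.

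The other 7 member bins were not called. Mest, a paternally expressed gene for a hydrolase-like protein, had a median OE of 1.21 in paternal and 0.687 in maternal pronuclei (log2 difference 0.84, limma, Benjamini-Hochberg adjusted p = 0.0900). Snrpn, which encodes a splicing-complex protein of the brain, had 1.18 and 0.432 (0.71, adjusted p = 0.168 by limma), and Peg3, a paternally expressed zinc-finger gene, 1.22 and 0.930 (0.68, adjusted p = 0.172 by limma), in the same order. Grb10, the gene of an adaptor that damps insulin and growth signalling, showed almost the same mean in paternal pronuclei, 1.50 ± 0.889, as in maternal pronuclei, 1.63 ± 1.02 (SD, n = 19 each), and its difference of 0.02 has a 95% interval of -0.58 to 0.61. Meg3, a maternally expressed untranslated RNA, lay at a median of 0.935 in paternal and 1.24 in maternal pronuclei, a log2 difference of -0.08 ± 0.36 (SE). Including the called ones, 6 members had an unadjusted p under 0.05, and 9 of 10 differences were positive.

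**Figure D1:**
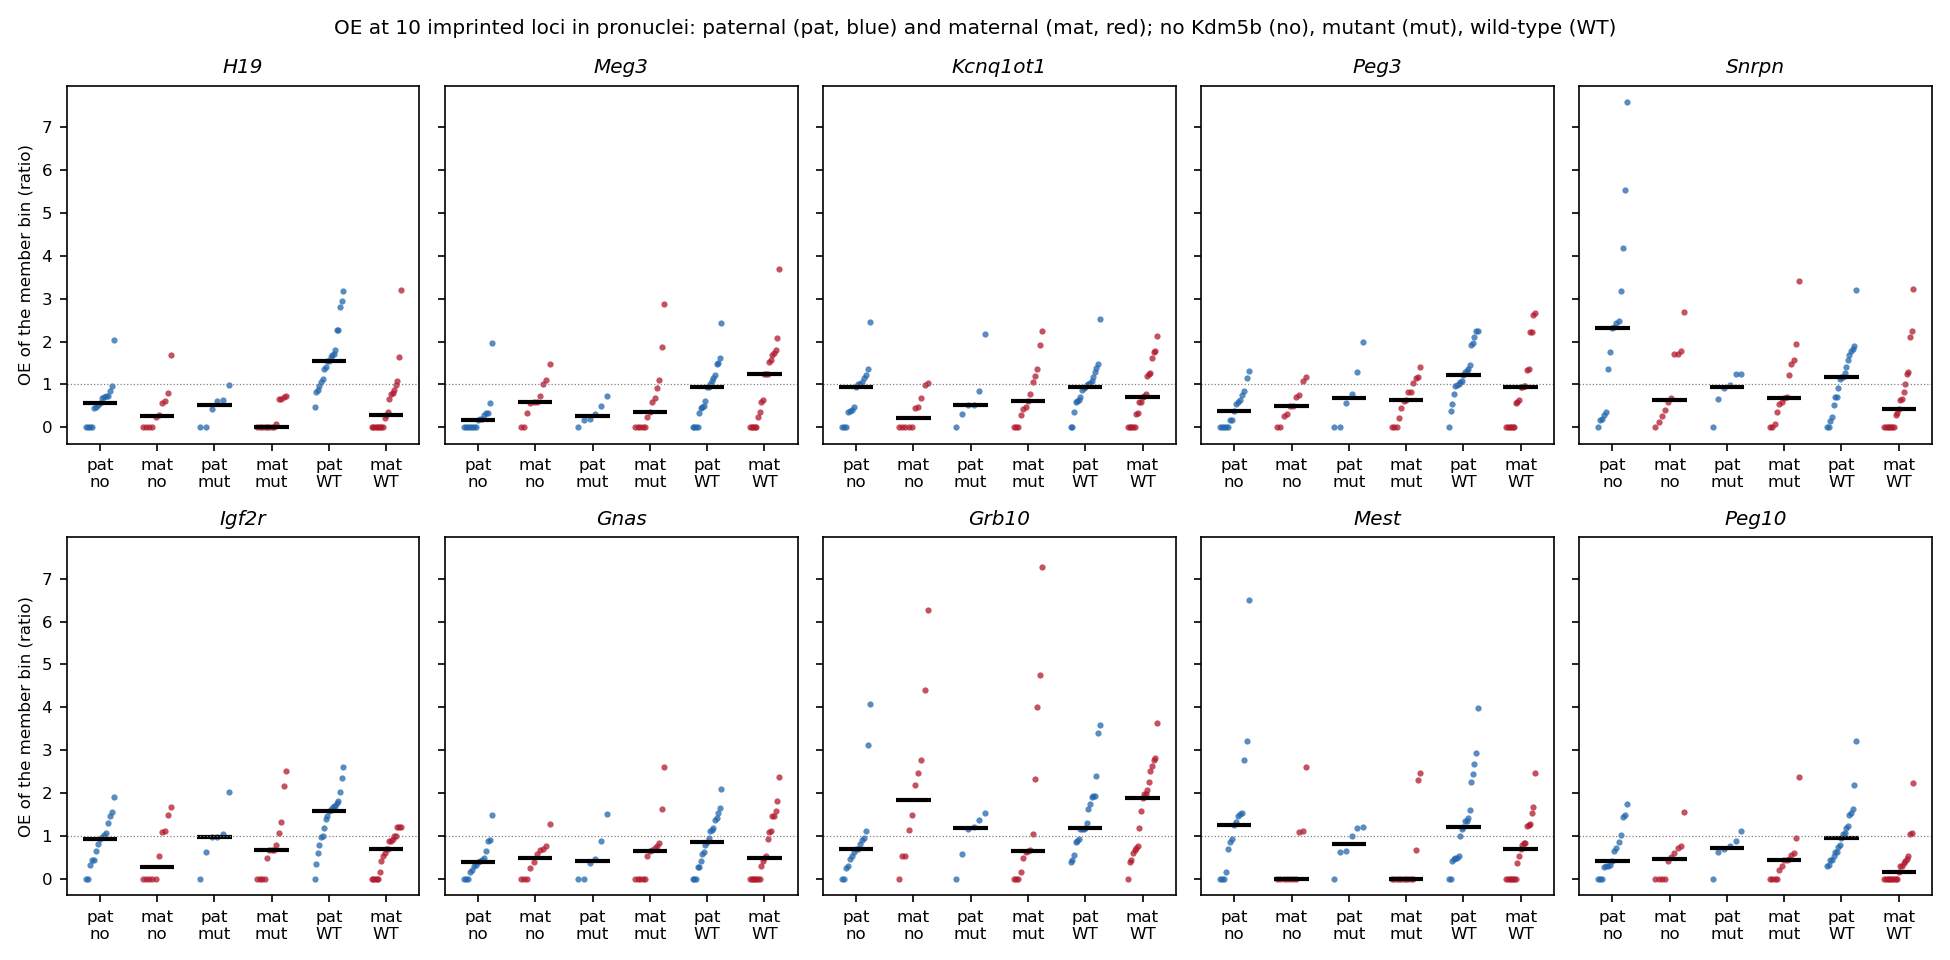
OE of the member bin (vertical axis, ratio) in every pronucleus for the 10 loci, paternal in blue and maternal in red, without Kdm5b, with the mutant and with wild-type Kdm5b; black bars are medians and the dotted line is an OE of 1. With wild-type Kdm5b the paternal points of H19 (median 1.56) stand clear of 0, while 8 of 19 maternal ones are at 0, and the groups of every locus overlap.

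Over 11 bins H19 and Peg10 were called again, and Kcnq1ot1, Gnas and Mest joined them. The window of Kcnq1ot1, the paternally expressed antisense RNA that silences its neighbours on the same chromosome (gene 63830, chr7:143213111-143296547, inside the bin chr7:143200001-143300000), had an OE of 0.897 to 1.85 with a median of 1.09 in paternal and 0.116 to 1.04 with a median of 0.606 in maternal wild-type Kdm5b pronuclei. Every paternal window lay above the maternal median, and the ranges meet only between 0.897 and 1.04. The difference of 0.79 ± 0.12 (SE, 95% interval 0.55 to 1.03, limma, Benjamini-Hochberg adjusted p = 1.62e-06) was called under all 11 alternatives, with 0.52 after thinning (adjusted p = 0.0119) and 0.62 with equal cell means (adjusted p = 8.74e-05). It was not carried by the Kcnq1ot1 bin itself, which had a median of 0.934 in paternal and 0.698 in maternal pronuclei (0.36, adjusted p = 0.522 by limma).

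The window of Gnas, the locus of the stimulatory G-protein alpha subunit, had an OE of 0.777 to 1.63 with a median of 1.11 in paternal and 0.217 to 1.52 with a median of 0.787 in maternal pronuclei, a difference of 0.51 ± 0.14 (SE, limma, Benjamini-Hochberg adjusted p = 0.00302), and 17 of 19 paternal windows lay above the maternal median. This call was lost after scaling to the median bin (0.24, adjusted p = 0.183 by limma) and kept in 11 of 12 alternatives, with 0.49 after thinning (adjusted p = 0.0123) and 0.34 with equal cell means (adjusted p = 0.0465). The Peg10 window was higher by 0.52 ± 0.15 (adjusted p = 0.00482, 8 of 11 alternatives), that of H19 by 0.45 ± 0.13 (adjusted p = 0.00692, 7 of 11), and that of Mest by 0.32 ± 0.13 (adjusted p = 0.0473, 3 of 11; SE and limma throughout). These 3 calls were lost after thinning (Peg10 0.39, adjusted p = 0.0917; H19 0.36, adjusted p = 0.0679; Mest 0.22, adjusted p = 0.298), with equal cell means (adjusted p = 0.0583, 0.0920 and 0.367 in the same order, limma) and with median scaling (adjusted p = 0.181, 0.380 and 0.854). Over all windows the split was 6843 higher and 1483 lower, but 2443 higher and 5737 lower with median scaling and 3851 and 3597 with equal cell means, so the excess of higher windows over all loci depends on the scaling. Under median scaling Kcnq1ot1 kept a difference of 0.55 (adjusted p = 0.00141 by limma). Among bins the split was 3455 higher and 291 lower, 1794 and 685 with median scaling and 1399 and 939 with equal cell means.

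The profiles differ in width. In the mean over pronuclei with wild-type Kdm5b, paternal OE was above maternal OE in all 11 bins around Kcnq1ot1 and Peg10, in 10 around Gnas, 8 around Meg3, 7 around H19 and Snrpn, 6 around Mest, 5 around Peg3 and Igf2r and 2 around Grb10. At Igf2r the gap was widest in the gene's own bin, with a mean of 1.39 in paternal and 0.601 in maternal pronuclei, and the neighbouring bins went either way. Around H19 the widest gap was not at the gene but 500 kb away, with a mean of 1.78 in paternal and 0.264 in maternal pronuclei, in a bin that is also in the Kcnq1ot1 window. At Grb10 the maternal mean was the higher one in most bins in every condition, since only 1 bin was higher in paternal pronuclei with the mutant and 4 without Kdm5b, and the Grb10 window, not called as deposited (-0.12), was called lower in paternal pronuclei with wild-type Kdm5b under median scaling (-0.43, limma, Benjamini-Hochberg adjusted p = 0.0313), the 1 of its alternatives that called it.

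**Figure D2:**
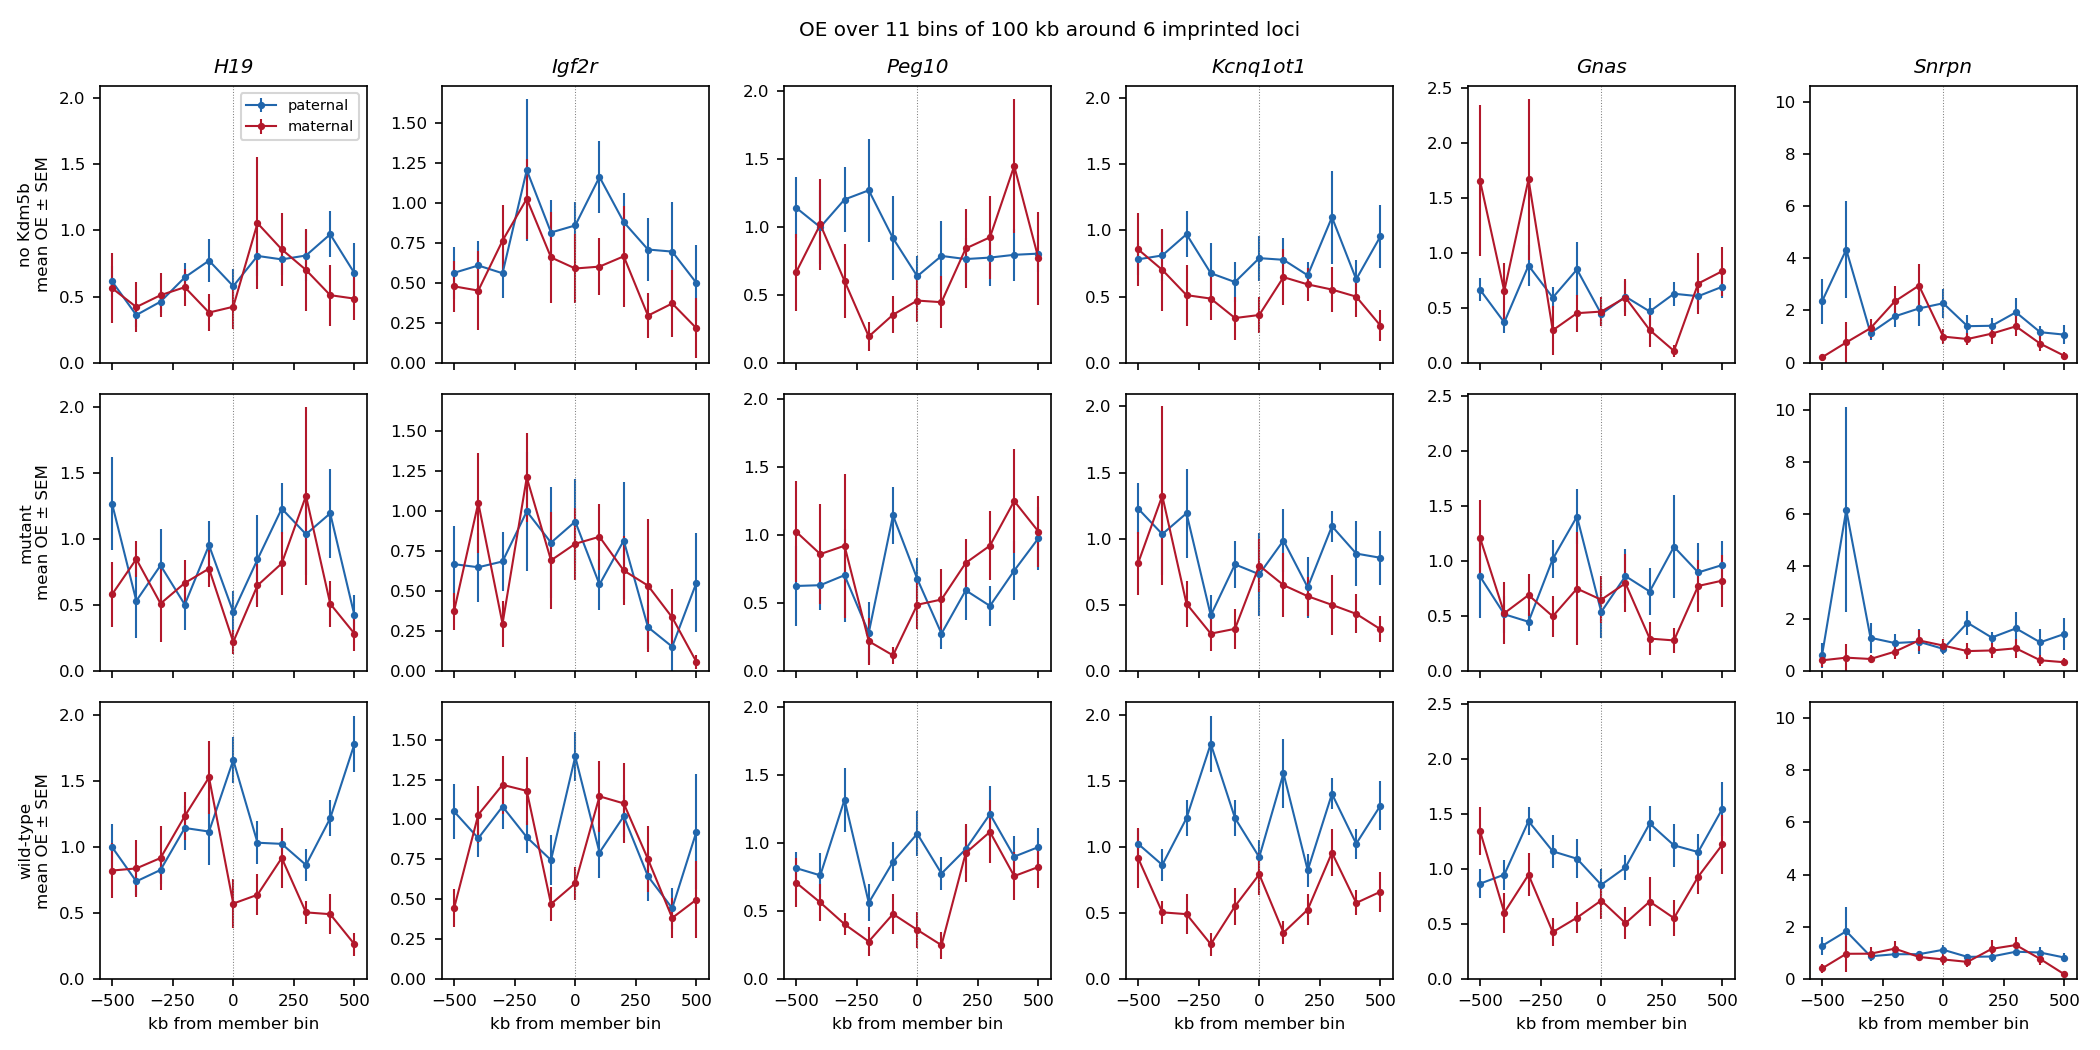
Mean OE with its standard error (vertical axis, ratio) in the 11 bins around 6 loci, by distance from the member bin in kb, in paternal (blue) and maternal (red) pronuclei; rows are no Kdm5b, mutant and wild-type Kdm5b. Vertical scales differ between columns; with wild-type Kdm5b the blue line runs above the red one in all 11 bins of Kcnq1ot1 and Peg10, and at Igf2r the gap of 1.39 against 0.601 sits in the central bin.

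Without Kdm5b no parental difference was called at any of these loci. Limma with Benjamini-Hochberg adjustment called 0 of 10 member bins, where 2.1% of all bins were called (1.82% higher), and 0 of 10 windows, where 8.68% of all windows were (7.07% higher and 1.61% lower), with 2 bins (Mest and Meg3) and 1 window (Mest) at an unadjusted p under 0.05. Mest had the widest gap of the 10 bins: OE ran between 0 and 6.50 with a median of 1.26 in paternal pronuclei, and between 0 and 2.61 with a median of 0 in maternal pronuclei. The bin was empty in 3 of 15 paternal and 7 of 10 maternal pronuclei, and the difference was 1.35 ± 0.46 (SE, 95% interval 0.45 to 2.25, limma, Benjamini-Hochberg adjusted p = 0.0867). Grb10 had the widest difference the other way, with a median of 0.692 in paternal and 1.85 in maternal pronuclei (-0.93 ± 0.49, adjusted p = 0.336 by limma). Meg3 also differed the other way, with a median of 0.168 in paternal and 0.587 in maternal pronuclei (-0.88 ± 0.43, adjusted p = 0.282 by limma). Peg3 (-0.27) and Gnas (-0.01) were negative as well. Snrpn had the highest paternal level of the 10, a median of 2.31 against 0.641 in maternal pronuclei, and its mean of 2.27 exceeded that of 98.6% of all bins in these paternal pronuclei. H19 lay at 0.562 in paternal and 0.274 in maternal pronuclei, with contact in 6.67% of paternal and 10.0% of maternal ones. The split of the calls over all bins, 437 higher and 66 lower, became 132 and 123 with equal cell means and 6 and 5 after thinning, and that over windows, 1697 and 387, became 1035 and 738 with equal cell means.

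With mutant Kdm5b, limma with Benjamini-Hochberg adjustment called 0 of 10 member bins, where 0.777% of all bins were called, and 1 member, Mest, had an unadjusted p under 0.05 (1.17, adjusted p = 0.301). H19 had no contact in any of the 6 paternal or 13 maternal pronuclei, which allows a share of up to 45.9% in paternal and 24.7% in maternal pronuclei by the exact 95% interval. Of the windows, that of Snrpn was called, where 8.6% of all windows were (8.46% higher). Its OE ran between 0.561 and 3.37 with a median of 1.41 in paternal and between 0.129 and 1.90 with a median of 0.382 in maternal pronuclei, a difference of 1.06 ± 0.34 (SE, limma, Benjamini-Hochberg adjusted p = 0.0400), with 6 of 6 paternal windows above the maternal median. The Snrpn window holds a bin 400 kb from the Snrpn bin that is empty in 81.3% of all cells. That bin had a mean OE of 6.17 in paternal and 0.506 in maternal pronuclei and a median of 0 in both. Mean paternal OE was above mean maternal OE in 9 of the 11 bins of the window. Without the bins that are empty in over 50% of cells, which are 1.59% of all bins but 3 of the 11 in this window, the difference was 0.73 (adjusted p = 0.212 by limma), an alternative chosen after seeing the data. The call held in 4 of 18 alternatives and was lost without paternal mutant pronucleus 1 (0.84, adjusted p = 0.150), 2 (1.14, adjusted p = 0.0511), 3 (1.00, adjusted p = 0.0870) or 5 (0.93, adjusted p = 0.116, all limma). Over all windows the split of 2032 higher and 33 lower became 72 and 13 with median scaling.

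**Figure D3:**
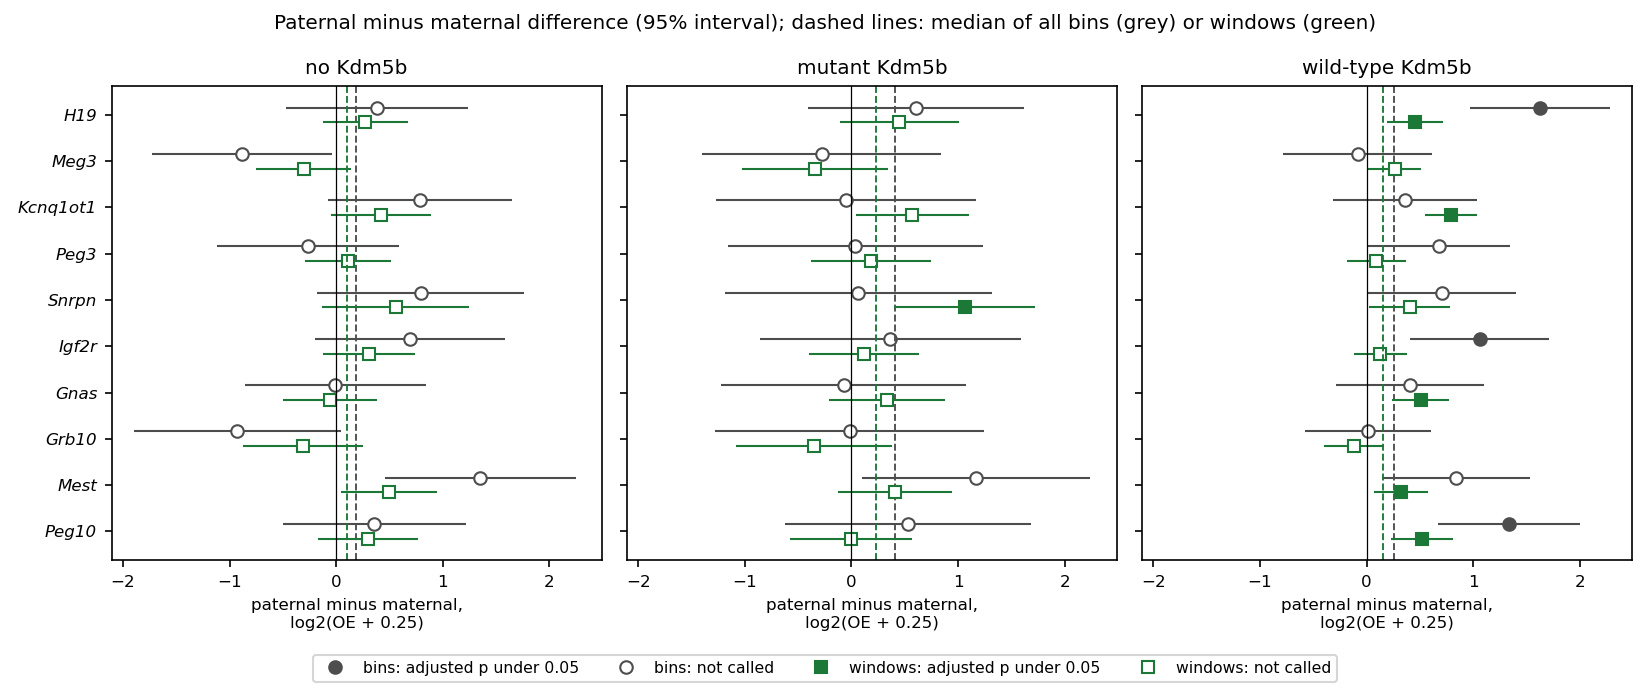
Paternal minus maternal difference in log2(OE + 0.25) (horizontal axis) for the 10 loci without Kdm5b, with the mutant and with wild-type Kdm5b, at the member bin (circles) and its window (squares), with 95% intervals; filled symbols have an adjusted p under 0.05 (limma) and dashed lines are the medians of all bins or windows. Filled symbols are absent without Kdm5b, 1 (Snrpn window) with the mutant, and 3 bins and 5 windows with wild-type Kdm5b.

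Setting wild-type against mutant Kdm5b asks whether the enzyme moves these loci within a pronucleus. This comparison uses the same paternal and maternal pronuclei as those above, so its values are not independent of them. In paternal pronuclei limma with Benjamini-Hochberg adjustment called 0 of 10 member bins, where 0.0167% of all bins (4) were called, and 2 members, H19 and Peg3, had an unadjusted p under 0.05. All 10 differences were positive, with a median of 0.56 against 0.08 over all bins. Over the bins in neither LAD list, where H19, Meg3, Igf2r, Mest and Peg10 lie, the median was 0.36. Over the 40 other imprinted genes described below it was 0.30. H19 had an OE of 0.469 to 3.17 with a median of 1.56 with wild-type Kdm5b, and 0 to 0.993 with a median of 0.516 with the mutant; 18 of 19 wild-type pronuclei lay above the mutant median. The difference was 1.60 ± 0.38 (SE, 95% interval 0.86 to 2.33, limma, adjusted p = 0.0739), and it passed the threshold with a pseudocount of 0.1 and without paternal mutant pronucleus 2 or 6 (adjusted p = 0.0454, 0.0479 and 0.0435). Peg3 had a median of 1.22 with wild-type and 0.678 with mutant Kdm5b (0.84, adjusted p = 0.348 by limma).

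Among paternal windows, Meg3 and Mest were higher with wild-type Kdm5b, where 32.8% of all windows were called, 17.7% higher and 15.1% lower. The Meg3 window had an OE of 0.694 to 1.42 with a median of 0.961 with wild-type and 0.305 to 0.958 with a median of 0.618 with mutant Kdm5b, a difference of 0.52 ± 0.15 (SE, limma, Benjamini-Hochberg adjusted p = 0.0101), with 19 of 19 wild-type windows above the mutant median. The Mest window had medians of 1.29 and 0.886 in the same order, a difference of 0.42 ± 0.14 (SE, adjusted p = 0.0240 by limma). The Meg3 call was kept in 12 of 17 alternatives and the Mest call in 11. Both were lost in a fit of all 6 pronuclear groups (adjusted p = 0.289 for Meg3 and 0.317 for Mest by limma) and without the wild-type pronuclei numbered 14 to 19 (0.0512 and 0.106); Meg3 was also lost without paternal mutant pronucleus 1 (0.0514) and Mest without pronucleus 5 (0.107). The replicate block ended both calls (adjusted p = 0.182 for Meg3 and 0.295 for Mest by limma), thinning that of Meg3 (0.30, adjusted p = 0.215), and median scaling (0.30, adjusted p = 0.129) and windows with 2 bins on each side (0.49, adjusted p = 0.125) that of Mest. Over all windows the split of 4240 higher and 3632 lower became 1391 and 4614 with median scaling. The other 8 windows had adjusted p-values above the threshold, and Snrpn alone was negative (-0.43, adjusted p = 0.124 by limma).

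In maternal pronuclei limma with Benjamini-Hochberg adjustment called 0 of 10 member bins, where 0% of all bins were called (2237 bins had an unadjusted p under 0.05), and 0 of 10 windows, where 0.204% were (0.171% higher). No member bin and 1 window (Mest, 0.50, adjusted p = 0.218) had an unadjusted p under 0.05. In whole zygotes with wild-type (n = 14) and mutant Kdm5b (n = 9), which hold both genomes, it called 0 of 10 member bins, where 0% of all bins were called (4095 had an unadjusted p under 0.05), and 0 of 10 windows, where 3.32% were (2.93% higher and 0.392% lower). There 3 member bins and 5 windows had an unadjusted p under 0.05. Median OE in whole zygotes was 0.705 with wild-type and 0.292 with mutant Kdm5b at Peg3 (1.08 ± 0.41, SE, adjusted p = 0.173 by limma), 0.788 and 0.394 at H19 (1.01, adjusted p = 0.197) and 1.15 and 0.281 at Igf2r (0.99, adjusted p = 0.203). The windows nearest to the threshold were Peg3 (0.62, adjusted p = 0.0569 by limma) and Igf2r (0.61, adjusted p = 0.0588).

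Whether Kdm5b acts on the 2 pronuclei unequally was tested as the difference of these differences. Limma with Benjamini-Hochberg adjustment called 0 of 10 member bins and windows, where 0.00417% of all bins (1) and 0% of all windows (1968 at an unadjusted p under 0.05) were called, and no member had an unadjusted p under 0.05. The widest was H19 with 1.02 ± 0.62 (SE, 95% interval -0.20 to 2.24, adjusted p = 0.856). So a parental difference at H19 that was called with wild-type Kdm5b and not with the mutant was not shown to differ between them.

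The whole paternal pronucleus with wild-type Kdm5b stood apart, and the members have to be read beside it. The LAD contrast, the log2 ratio of mean OE over bins in both LAD lists to that over bins in neither, averaged -0.09 in paternal and 0.28 in maternal pronuclei with wild-type Kdm5b, 0.54 and 0.65 with the mutant, and 0.76 and 0.68 without Kdm5b, paternal first. In the wild-type group the mean share of pronuclei in contact was 49.8% for bins in neither list and 44.9% for bins in both in paternal pronuclei, and 36.2% and 42.6% in maternal ones. H19, Igf2r and Peg10 are in neither list. The part of this whole-pronucleus contrast in their difference was not tested. In the same paternal pronuclei the mean OE of H19 exceeded that of 99.3% of all bins, that of Igf2r 93.7% and that of Peg10 57.3%. These ranks use the same paternal values as the calls and carry no test.

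Dam alone tells where chromatin is open to the enzyme. In whole zygotes, Dam-lamin B1 (n = 19) gave lower OE than Dam (n = 46) at H19, Igf2r, Peg3, Kcnq1ot1, Grb10 and Gnas, and higher OE at Snrpn. Limma with Benjamini-Hochberg adjustment called these 7 of 10 member bins where 59.8% of all bins were called, 22% higher and 37.8% lower, and 9 of 10 windows where 82.1% of all windows were, 32.6% higher and 49.5% lower. Of the bins in neither LAD list, 74.3% were called lower. The 2 groups differ in depth, with a median of 41812 counts for Dam-lamin B1 and 94299 for Dam, which was injected at the higher concentration; their part was not tested.

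H19 was at 0 to 2.58 with a median of 0.546 with Dam-lamin B1, and at 0 to 4.45 with a median of 1.90 with Dam; 18 of 19 Dam-lamin B1 zygotes lay below the Dam median (-1.53 ± 0.26, SE, limma, Benjamini-Hochberg adjusted p = 3.26e-07). Igf2r had medians of 0.323 with Dam-lamin B1 and 1.26 with Dam (-1.27 ± 0.28, SE, adjusted p = 7.13e-05 by limma). Both loci were thus marked less by Dam-lamin B1 than by Dam in the whole zygote. Snrpn went the other way, with 0 to 6.68 and a median of 1.34 with Dam-lamin B1, and 0 to 1.59 and a median of 0.451 with Dam (1.17 ± 0.30, SE, adjusted p = 0.000539 by limma), and 17 of 19 Dam-lamin B1 zygotes lay above the Dam median. The gene is 467683 bases long, and in the bin of its first transcription start the difference was 0.20 (adjusted p = 0.570 by limma). Peg3 (-1.06), Kcnq1ot1 (-0.91), Grb10 (-0.90) and Gnas (-0.74) were the other lower bins; Gnas was called in 3 of 8 alternatives and Grb10 in 7 of 9. Meg3, Mest and Peg10 had differences of -0.49, -0.47 and -0.48 that were not called. Of the windows, 8 were lower, from -1.03 at Igf2r to -0.42 at Peg10, Snrpn was higher by 0.52, and Grb10 was at -0.02 (adjusted p = 0.869 by limma). The windows of Igf2r and Kcnq1ot1 (-0.88) lay farthest below Dam.

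**Figure D4:**
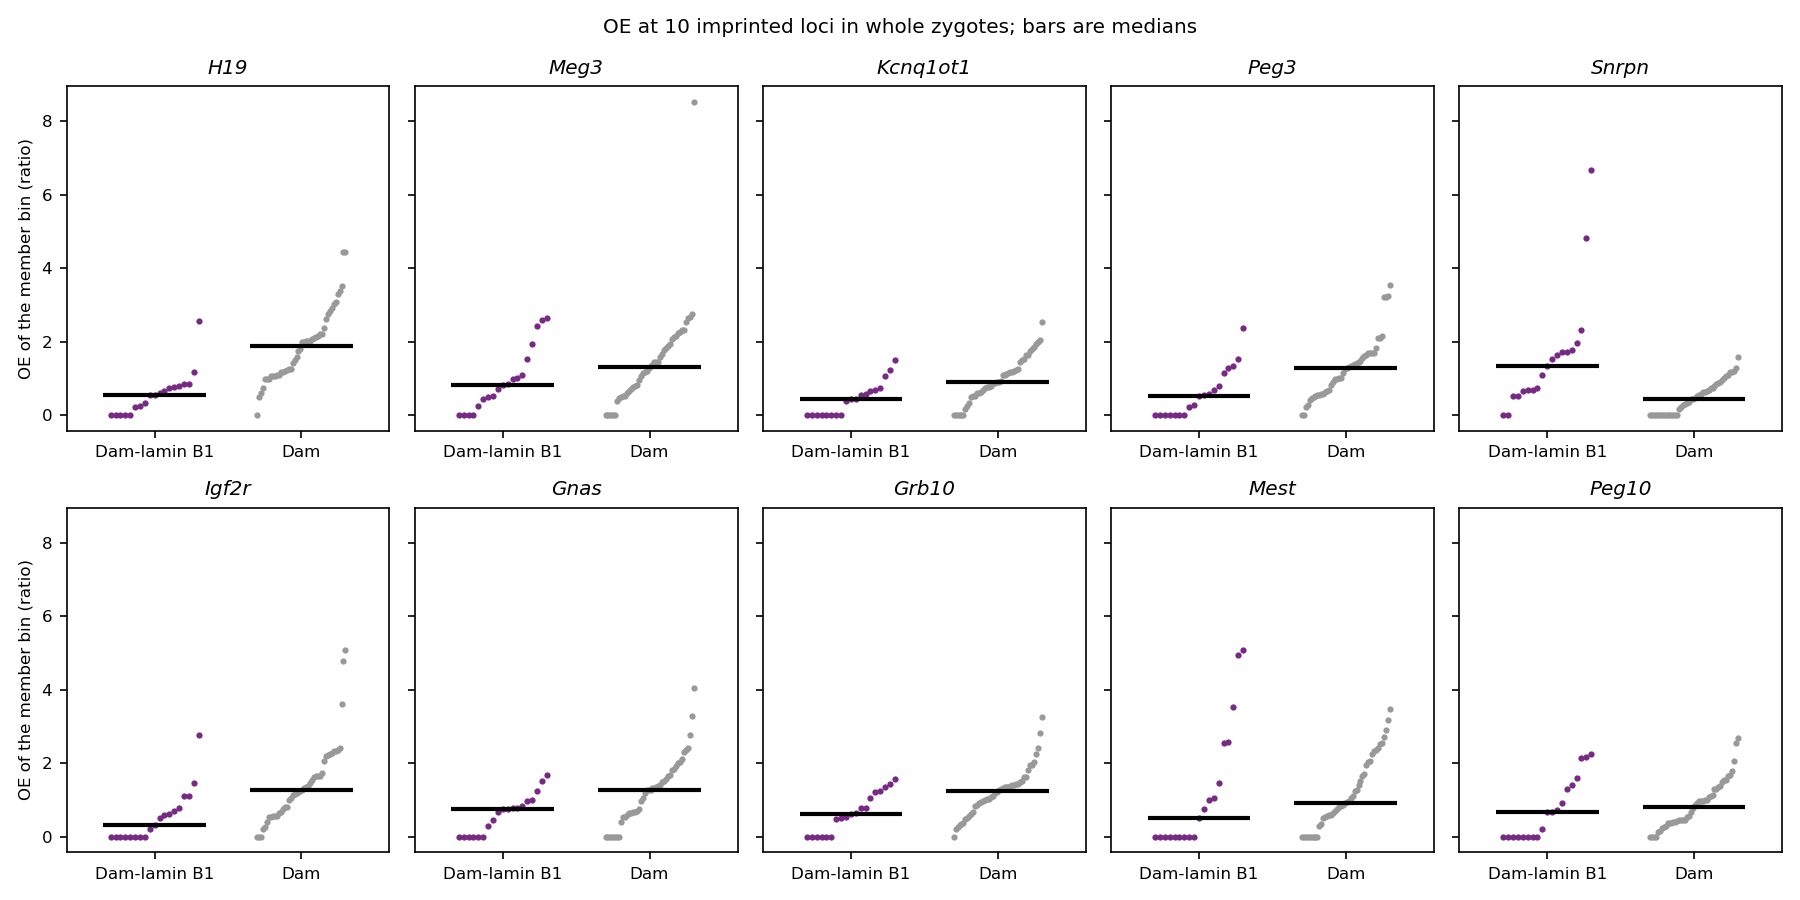
OE of the member bin (vertical axis, ratio) in single zygotes, Dam-lamin B1 (n = 19) left of Dam (n = 46), for the 10 loci, with medians as bars. The Dam medians lie above the Dam-lamin B1 medians at 9 loci, such as H19 with 0.546 for Dam-lamin B1 and 1.90 for Dam, and below at Snrpn with 1.34 and 0.451.

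At every stage each locus had an OE of at least 1, often from 1 or a few counts, in some cells and not in others. Stages were compared without a test, since strain, mRNA concentration and depth change with stage, and the intervals are exact 95% binomial ones over cells that cover counting error only. The numbers of cells were 56 oocytes, 19 zygotes, 47 cells of 2-cell embryos, 41 of 8-cell embryos and 10 ES cells. Of the 50 pairs of a locus and a stage, 7 had contact in at least 50% of cells. Snrpn was in contact in 25.0% of oocytes, 57.9% of zygotes, 44.7% of 2-cell and 36.6% of 8-cell stage cells and 80.0% of ES cells, with intervals of 14.4 to 38.4% in oocytes and 44.4 to 97.5% in ES cells that do not overlap. After thinning to equal depth these shares were 44.6% (31.3 to 58.5%) in oocytes and 70.0% (34.8 to 93.3%) in ES cells, and their intervals overlap. Peg3 was in contact in 14.3% of oocytes, 26.3% of zygotes, 53.2% of 2-cell and 39% of 8-cell stage cells and 50.0% of ES cells, and Peg10 in 8.93%, 31.6%, 44.7%, 36.6% and 40.0% in the same order. For both, the interval of oocytes (6.38 to 26.2% and 2.96 to 19.6%) lay below that of 2-cell stage cells (38.1 to 67.9% and 30.2 to 59.9%). Meg3 was lowest at the 2-cell stage, with 19.1% (9.15 to 33.3%), and highest at the 8-cell stage, with 53.7% (37.4 to 69.3%). After thinning, the intervals of these stages still lay apart at Peg3 (10.2 to 32.4% and 34.1 to 63.9%), Peg10 (2.96 to 19.6% and 20.9 to 49.3%) and Meg3 (12.3 to 38% and 39.7 to 71.5%).

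The other 6 loci had intervals that overlap between their lowest and highest stage. H19 was in contact in 33.9% of oocytes, 10.5% of zygotes, 23.4% of 2-cell and 22.0% of 8-cell stage cells and 10.0% of ES cells, and Igf2r in 25.0%, 21.1%, 8.51%, 24.4% and 20.0%. After thinning, H19 was at 55.4% of oocytes, 42.1% of zygotes and 36.2% of 2-cell stage cells, and Igf2r at 0 to 19.6% over the stages, so the H19 shares moved with the thinning. For comparison, the share of Dam cells with H19 at an OE of at least 1 was 62.8% in oocytes, 84.8% in zygotes, 80.0% at the 2-cell and 100% (4 of 4) at the 8-cell stage. These Dam shares were not thinned. In oocytes the median depth was 181965 counts with Dam and 47948 with Dam-lamin B1. The H19 intervals there overlap, with 46.7 to 77.0% for Dam and 21.8 to 47.8% for Dam-lamin B1. Kcnq1ot1 was lowest in zygotes (15.8%) and highest in ES cells (40.0%), and Gnas lowest in ES cells (10.0%) and highest at the 8-cell stage (34.1%). Grb10 was lowest in zygotes (31.6%) and Mest in ES cells (10.0%), and both were highest at the 2-cell stage (53.2% for Grb10 and 48.9% for Mest). The shares depend on the cut: with an OE of at least 2, some pairs had no cell in contact (Kcnq1ot1, Gnas and Grb10 in zygotes, Igf2r at the 2-cell stage, and H19, Meg3, Igf2r, Gnas, Mest and Peg10 in ES cells), 0 of the 50 pairs reached 50% of cells, and after thinning all cells to 23564 counts 9 did, with 36 of 50 shares inside the interval given here. Oocytes are the cells to read with most care, since their LAD contrast averaged -0.17, against 0.64 in zygotes, so that contact there did not follow the blastocyst LADs.

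**Figure D5:**
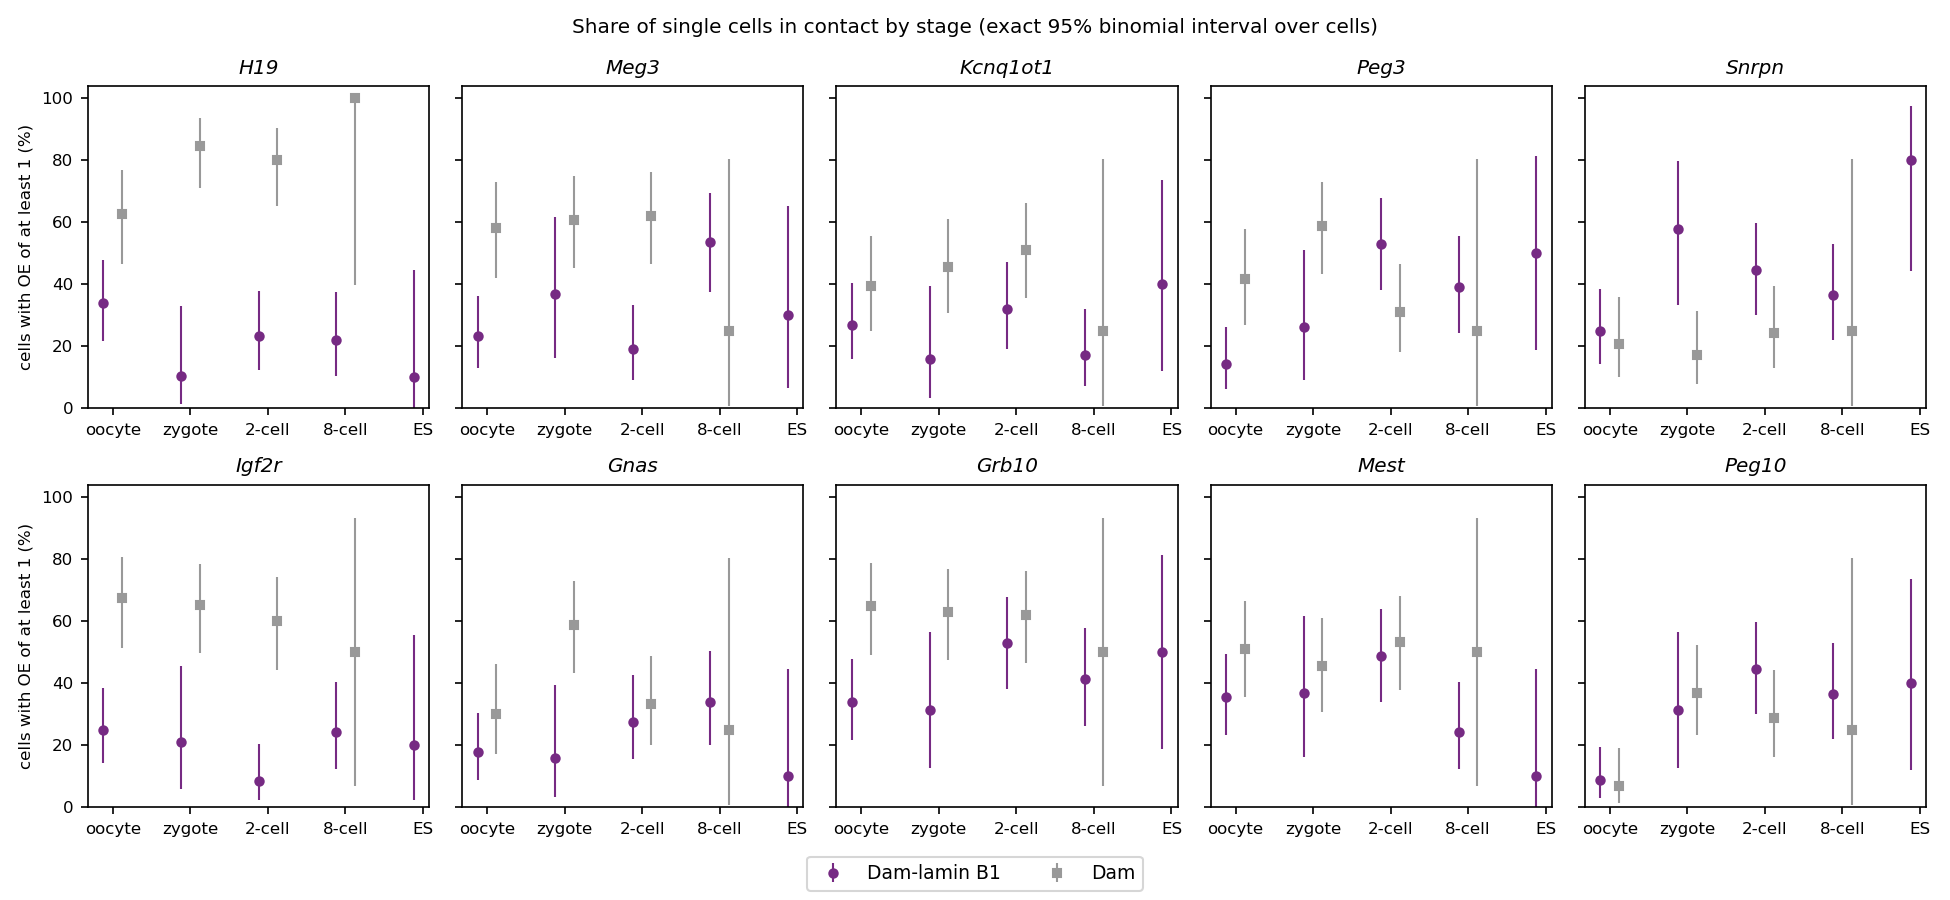
Percent of cells with an OE of at least 1 (vertical axis) by stage for the 10 loci, Dam-lamin B1 in purple and Dam in grey, with exact 95% binomial intervals over cells; ES cells have no Dam group. At the depth as deposited H19 stays at or under 33.9% with Dam-lamin B1 and at or above 62.8% with Dam, and Snrpn runs from 25.0% in oocytes to 80.0% in ES cells.

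Other imprinted genes near and far were placed by the same midpoint rule, 40 known imprinted genes in 35 bins. With wild-type Kdm5b, limma with Benjamini-Hochberg adjustment called 5 of the 40 genes higher in the paternal pronucleus at their bin: Ascl2 (1.40), a transcription factor of the placenta, Sgce (1.33), which shares the bin of Peg10, Mkrn3 and Peg12 (1.28, the same bin), and Dio3 (1.22), a thyroid hormone deiodinase that was named after its value was seen. These 5 stand beside 14.4% of all bins called higher. Of the 40 windows 19 were higher and 0 lower, beside 28.5% and 6.18% of all windows, led by Cdkn1c and Slc22a18 (0.89, the same bin), Phlda2 (0.88) and Kcnq1 (0.79, the bin of Kcnq1ot1), all within the Kcnq1ot1 cluster. Without Kdm5b and with the mutant 0 of the 40 genes were called at their bin. Of the windows of paternal pronuclei, 13 were higher with wild-type than with mutant Kdm5b, beside 17.7% of all windows, among them Dlk1 (0.61), Rian (0.53), Rtl1 (0.52, the bin of Meg3) and Phlda2 (0.52). Between Dam-lamin B1 and Dam in zygotes, the bins of 5 genes were higher, those of Ube3a (1.14), Mkrn3 and Peg12 (0.99), and Ndn and Magel2 (0.92), which lie in the Snrpn region of chromosome 7 and were named after their values were seen. Another 23 were lower, and of all bins 22% were higher and 37.8% lower. The lower ones were led by Igf2 and Ins2 (-1.49, the same bin), Slc22a2 (-1.35) and Cdkn1c (-1.28). Of the 40 genes 52.5% lie in bins in neither LAD list and 17.5% in both.

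The genes whose mean OE over the 19 Dam-lamin B1 groups ran most like a member's, on other chromosomes, were Arpc3 for H19 (Pearson r = 0.88), Peg3 with Insyn2b (0.87), Igf2r with Bmp1 (0.86), Gnas with Aktip (0.83), Kcnq1ot1 with Ppp3r1 (0.82), Snrpn with Vgll3 (0.81), Peg10 with Npepl1, Grb10 with Slc22a30 (both 0.80), Meg3 with Prkcb (0.79) and Mest with Pik3ap1 (0.75). Each is the highest over all genes compared, and groups share strain and depth, so these values describe the table and carry no test.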

How the data were processed

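Single-cell DamID libraries were trimmed with cutadapt and aligned with BWA 0.7.12 to mm10, per the submitters' processing notes. The values used are the observed-over-expected ratio (OE) per 100 kb bin and cell, as deposited by the authors; the making of the expectation is not stated there. OE was taken as deposited, without further normalization. The LAD lists are deposited regions of the blastocyst. The 10 members and all lists were chosen with earlier results of these data known. The members are named by the bin of their midpoint; of other imprinted genes, up to 4 called genes with the widest difference are named per comparison; for likeness, the 1 coding gene on another chromosome with the highest r.

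Groups come from the labels. limma 3.58.1 (R 4.3.3), with a trend on mean OE, was run on log2(OE + 0.25) of the compared groups over all bins, and over windows of mean OE across 11 bins, after leaving out features with a mean OE under 0.1, with Benjamini-Hochberg adjustment over all features. Its log2 differences understate the change of low bins. The scripts were tested on simulated data. Python 3.11.15, pandas 2.3.3 and scipy 1.17.1 gave the shares and exact intervals. Counts were recovered where the deposited ratios were whole multiples of 1 step within 0.02 of a count (99.92 to 100% of low values per cell). Whether replicate numbers pair samples was checked by the correlation of their deviations. It was low, which at few counts per bin does not settle the question. Alternatives were other pseudocounts, no filter, median scaling, thinning, equal cell means, a replicate block, 1 fit of all 6 pronuclear groups, narrower windows, other placements of the gene and leaving out pronuclei.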

Additional observations from a re-analysis of the deposited data

Results flagged for a closer look

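Of 70 combinations of a member and a group of 4 to 10 cells, 8 had a highest cell far above the others of its group. The groups were Dam-lamin B1 ones and the 4 Dam cells of the 8-cell stage. For normally spread values chance gives this in about 1 in 20 groups; OE is skewed and often 0, and its own chance rate was not measured. Among maternal pronuclei without Kdm5b, 3 loci had such a cell, each in another pronucleus: Mest in pronucleus 2 (OE 2.61, next highest 1.11), H19 in pronucleus 1 (1.70, next 0.810) and Peg10 in pronucleus 4 (1.56, next 0.764). In the ES cells, cell 13 stood high at Kcnq1ot1 (3.06, next 1.57) and at Gnas (1.66, next 0.716), and cell 11 at Grb10 (2.01, next 1.21). In whole zygotes, Grb10 was high in aphidicolin zygote 1 (3.51, next 1.62) and Gnas in zygote 9 with mutant Kdm4d (1.13, next 0.570). Aphidicolin blocks DNA replication, and Kdm4d is another histone demethylase.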

How the results depend on the processing

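Of 160 pairs of a member and a comparison, 58 were followed through 647 alternative values: 565 kept their direction and their side of the threshold, 54 lost it, 23 gained it and 5 changed sign. Of 1153 values of the other 102 pairs, 117 had the other sign. The 5 changes of sign were none of them called: Snrpn, paternal minus maternal with wild-type Kdm5b, was -0.10 in the bin of its CpG-richest promoter; the Meg3 window of the same comparison was -0.014 with median scaling; and the Grb10 window, Dam-lamin B1 minus Dam, was 0.11 with median scaling, 0.011 after thinning and 0.0084 with equal cell means. The cause was not tested.

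Counts of called bins moved as follows. For paternal minus maternal without Kdm5b (503), they were 322 with a pseudocount of 1, 11 thinned, 142 with the replicate block, 255 with equal cell means and 839 without 3 pronuclei with a median OE of 0, which could not be median scaled. With the mutant (186), they were 299 and 85 with pseudocounts of 1 and 0.1, 345 without a filter, 0 with median scaling, 2 thinned, 2 with the block, 685 in the fit of 6 groups, 0 with equal cell means and 70 to 117 with 1 pronucleus left out. With wild-type Kdm5b (3746), they were 2479 with median scaling, 842 thinned, 2338 with equal cell means and 1783 without pronuclei 14 to 19. For wild-type minus mutant in paternal pronuclei (4), they were 12 with a pseudocount of 0.1 (1 member), 0 without a filter, with median scaling, thinned, with the block, in the fit of 6 groups and with equal cell means, 1 without pronuclei 14 to 19, and 0 to 34 with 1 left out (0 to 1 member). In maternal pronuclei (0) they were 1 thinned and 52 in the fit of 6 groups, for Dam-lamin B1 minus Dam (14341) 9021 thinned, where the split of 5284 higher and 9057 lower became 4733 and 4288 (6211 and 6948 with equal cell means), and the 1 bin of the difference of differences was lost with a pseudocount of 0.1, median scaling, thinning, the fit of 6 groups, equal cell means and without pronuclei 14 to 19 (0 bins each).

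Counts of called windows without Kdm5b (2084) were 1325 thinned, 1032 with the block and 3692 in the fit of 6 groups. With the mutant (2065), they were 85 with median scaling, 947 thinned, 1260 with the block, 3185 in the fit of 6 groups, 1374 with 2 bins on each side, 552 with equal cell means and 1305 to 1542 with 1 left out. The 1 member there became 0 with a pseudocount of 0.1, no filter, median scaling, thinning, the block, 2 bins on each side, equal cell means, both other placements, without often empty bins, and 0 to 1 with 1 left out. With wild-type Kdm5b the count of 5 members became 2 with median scaling (Kcnq1ot1, and Grb10 lower in paternal pronuclei, which was not among the 5), 2 thinned and 2 with equal cell means (Kcnq1ot1 and Gnas), and 3 with 2 bins on each side (Kcnq1ot1, Gnas and Peg10). For wild-type minus mutant in paternal pronuclei (7872, 2 members), they were 4933 thinned (5 members), 0 with the block and in the fit of 6 groups (0 members), 3445 with 2 bins on each side, 2225 without pronuclei 14 to 19 (0 members) and 5066 to 9605 with 1 left out (1 to 6 members); median scaling left 1 member. In maternal pronuclei (49) they were 30 with a pseudocount of 1, 10 with median scaling, 4 thinned, 0 with the block, 1186 in the fit of 6 groups, 27 with 2 bins on each side, 19 with equal cell means and 0 without pronuclei 14 to 19. In whole zygotes (797) they were 1209 with a pseudocount of 1, and 0 with a pseudocount of 0.1, no filter, median scaling, thinning, the block, 2 bins on each side, equal cell means and without often empty bins. Stage pairs reaching 50% of cells were 0 with an OE of at least 2.

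Same-numbered samples deviated together little: for paternal and maternal wild-type pronuclei r was -0.004 to 0.068 and 3 of 19 correlated best with their own number. In no comparison were all pairs over 0.1. With few counts per bin a low r cannot exclude pairing, so pairing stays unknown and the replicate block is not read as a paired test. Equal cell means, often empty bins, pronuclei 14 to 19, the 3 pronuclei of median 0, the CpG-richest placement and single left-out pronuclei were chosen after seeing the data. A bin holds a few counts per cell. A member not called is one where no difference was detected, which does not show that there was none, and the reason was not tested.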
